A study of Mus musculus with 4 samples.

Results

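Hmga1, Hmga1b, Hmga2, Igf2bp1, Igf2bp2, Igf2bp3 and Lin28b are high mobility group A and oncofetal RNA-binding genes. These 7 genes, of 22594 genes with a value, were followed in 2 mouse endometrial cancer cell lines. They were chosen by name with the comparison of the lines already known, so the differences of the 7 genes between the lines are a description and carry no test. The 4 libraries were 2 of the line MSH2KO21B and 2 of the line MECPK, both labelled as endometrial cancer cells from uterine cancer, and were made from total RNA. The labels do not say how either line was made, which alleles or treatments it carries beyond its name, whether one line comes from the other, or whether replicates are separate cultures. The spread between replicates may therefore be technical, and since each group is 1 line, the effect of any allele cannot be told apart from other differences between the lines.

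High mobility group A proteins bind the minor groove of AT-rich DNA through short AT-hook motifs and bend chromatin so that transcription factors can assemble. The IGF2BP proteins bind messenger RNAs through RRM and KH domains and control their stability, transport and translation, and LIN28B binds the precursors of the microRNA let-7 and blocks their maturation. Most of these genes are active in the embryo, silent or low in many adult tissues and active again in many carcinomas, and mature let-7 represses several of them through sites in their 3′ untranslated regions (3′ UTRs).

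Values are TPM, the abundance of a transcript per length, scaled so that each library sums to 1000000. Differences are MSH2KO21B minus MECPK in mean log2(TPM + 1), a scale on which low genes differ by less than their ratio of levels. Genes at or above 1 TPM numbered 11442 and 11478 in the MSH2KO21B libraries and 10822 and 10775 in the MECPK libraries. Of the 7 genes, 6 reached 1 TPM in at least 2 libraries and Lin28b did not. Across the 11921 genes that reached that level, limma with Benjamini-Hochberg adjustment called 46.6% higher and 29.7% lower in MSH2KO21B at an adjusted p under 0.05, which is 76.2% in either direction. The median difference of all these genes was 0.19. Of the called genes 61.07% were higher. The 2 other scalings tried gave a lower share, quantile normalization 48.63% and scaling by median ratios 48.91%.

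Markers of the labelled tissue differed between the lines and were partly absent. Of 14 uterine epithelial markers 11 were tested, and limma called 2 higher and 9 lower in MSH2KO21B. Their summed level was 361 and 349 TPM in MSH2KO21B and 5388 and 5329 TPM in MECPK. The largest MECPK means were those of the keratins Krt8, Krt18, Krt7 and Krt19, at 1517, 1286, 1252 and 663 TPM. The 2 called higher were Cdh1, with means of 166 TPM in MSH2KO21B and 99.9 TPM in MECPK, and Esr1, with 2.76 and 1.36 TPM. Pax2, Emx2, Pax8 and Foxa2, of the same list, had MECPK means of 39.9, 28.1, 24.0 and 4.10 TPM. Their MSH2KO21B means were 0.128, 8.54, 4.54 and 0 TPM, and each was called lower. Pgr, Hoxa10 and Hoxa11, which mark uterine tissue, were listed at 0 in every library. Summed immune markers lay between 5.88 and 5.98 TPM in MSH2KO21B and between 3.70 and 4.49 TPM in MECPK, with 6 of 8 under 1 TPM everywhere. Fibroblast markers summed to between 2.14 and 2.17 TPM in MSH2KO21B and between 0.769 and 1.37 TPM in MECPK, with 7 of 8 under 1 TPM everywhere. Endothelial markers summed to 1.87 and 2.81 TPM in MSH2KO21B and to at most 0.0717 TPM in MECPK, with 4 of 6 under 1 TPM everywhere. The part of the epithelial marker difference in the values below was not tested, and in bulk RNA fewer cells of a type and less RNA per cell cannot be told apart.

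The high mobility group A genes were far lower and the IGF2BP genes were split in direction. Hmga1, Hmga1b and Hmga2 had 8.13-fold, 8.50-fold and 19.5-fold lower mean TPM in MSH2KO21B, and Igf2bp2 was 1.60-fold lower. Igf2bp1 and Igf2bp3 had 10.9-fold and 5.50-fold higher mean TPM in MSH2KO21B. On the log2 scale, 2 of the 7 genes were higher by over 1 and 3 were lower by over 1, where 19% of all tested genes were higher and 11.4% lower by as much. The lines did not overlap for any of the 7 genes, with 3 of them higher and 4 lower in MSH2KO21B. Among all tested genes the lines did not overlap for 88.9%, with 53.7% higher and 35.2% lower. Because the choice of the genes used this contrast, nothing is read from these counts.

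**Figure D1:**
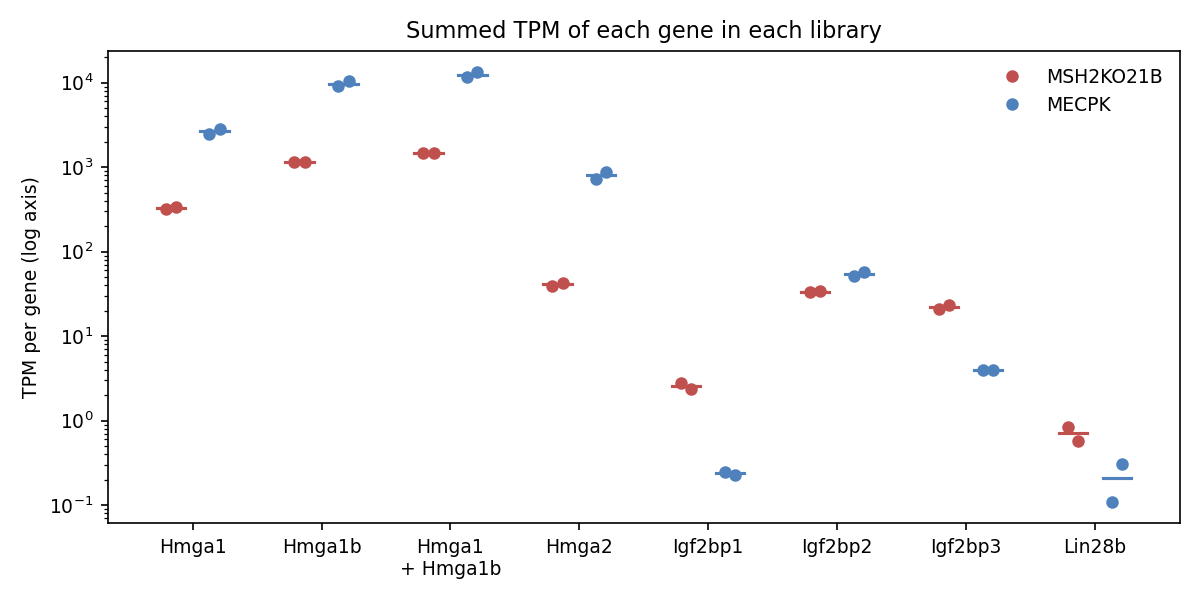
TPM (log axis) of the 7 genes, and of Hmga1 and Hmga1b summed, in each library, with MSH2KO21B left of MECPK for each gene. Each point is 1 library and each short line a mean; the 3 high mobility group A genes and Igf2bp2 sit lower in MSH2KO21B, and Igf2bp1, Igf2bp3 and Lin28b sit higher there.

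Hmga2 encodes an AT-hook protein that is abundant in the early embryo and in mesenchymal tumours, and it lies at chr10:120361275-120476469 on the minus strand (GRCm38). Its level was 39.2 and 42.6 TPM in MSH2KO21B, against 724 and 872 TPM in MECPK. Both MECPK libraries stood far above both MSH2KO21B libraries. The means were 40.9 ± 2.40 TPM in MSH2KO21B and 798 ± 104 TPM in MECPK (SD, n = 2 each), a log2 difference of -4.25. Among all genes of a library ordered by TPM, Hmga2 ranked 3698 and 3489 in MSH2KO21B and 221 and 187 in MECPK. Of its 2 transcripts, the one with a coding sequence of 327 bases held 98.8% and 96.8% of the gene's TPM in MSH2KO21B and 98.9% and 98.8% in MECPK. The other, with 390 coding bases, had 0.490 and 1.36 TPM in MSH2KO21B and 7.90 and 10.3 TPM in MECPK. The same transcript therefore carried nearly all of the gene's value in both lines.

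The genes whose pattern over the 4 libraries lay closest to that of Hmga2, by Euclidean distance in log2(TPM + 1), were BC029722 at a distance of 0.56, Igfbp4 at 0.93 and Cystm1 at 1.22. Igfbp4 encodes a secreted binding protein of insulin-like growth factors. It had 41.3 and 37.1 TPM in MSH2KO21B and 492 and 531 TPM in MECPK. The likeness is over 4 libraries of 2 lines, so it mostly reflects a similar level in each line.

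Hmga1 encodes the other main AT-hook protein of the family and lies at chr17:27556497-27563674 on the plus strand. Its summed level was 318 and 337 TPM in MSH2KO21B, against 2472 and 2846 TPM in MECPK. The means were 327 ± 13.1 TPM in MSH2KO21B and 2659 ± 265 TPM in MECPK, a log2 difference of -3.02. Hmga1 was thus high in both lines and several-fold lower in MSH2KO21B, with no overlap. The coding gene AI413582 overlaps it on the opposite strand.

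Hmga1b is a second locus with a near-identical copy of the Hmga1 message, at chr11:120762794-120764419 on the plus strand. Its summed level was 1154 and 1141 TPM in MSH2KO21B, against 9056 and 10453 TPM in MECPK. It ranked 150 and 147 among all genes in the MSH2KO21B libraries and 3 in both MECPK libraries. The log2 difference was -3.08, close to that of Hmga1. Both loci together had 1472 and 1478 TPM in MSH2KO21B and 11528 and 13299.6 TPM in MECPK, a log2 difference of -3.07 and a mean 8.42-fold lower in MSH2KO21B. The levels of the separate loci depend on how similar sequences shared reads, so the values were also taken apart by coding sequence.

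The deposited values followed coding sequences. This was checked on transcripts above 0 in all 4 libraries and in the same version as in GENCODE M21. Of the 6 Hmga1 transcripts, 5 were in another version and so outside the check. Of 5054 pairs of transcripts that share a coding sequence and differ elsewhere, 5054 had equal values in all 4 libraries, against 0.029% of 20812 pairs of one gene with different coding sequences. This is the pattern of an index of coding sequences, which no label states. If the index was so built, reads from untranslated regions alone were not assigned to the transcripts that hold them, and levels are per coding length. The 6 Hmga1 transcripts and the 2 Hmga1b transcripts had only 3 distinct sets of values.

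Both main forms of Hmga1 differ by an insertion of 33 bases after coding base 102. The stretch around it is shown because the values separate by it, with the inserted bases in capitals (GENCODE M21, GRCm38, plus strand of chromosome 17).
Hmga1 form of 291 coding bases: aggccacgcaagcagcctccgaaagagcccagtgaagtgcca
Hmga1 form of 324 coding bases: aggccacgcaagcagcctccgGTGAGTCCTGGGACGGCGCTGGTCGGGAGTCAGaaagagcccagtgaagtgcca

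The 2 Hmga1 transcripts of the 291-base form summed to 215 and 236 TPM in MSH2KO21B and to 1753 and 2001 TPM in MECPK. The value of the 324-base form stood at 5 transcripts of both loci. These summed to 128.6 and 125.6 TPM in MSH2KO21B and to 899 and 1057 TPM in MECPK. The 324-base form is identical in Hmga1 and Hmga1b, so the table cannot say which locus gave its reads. The longer form made up 37.4% and 34.7% of both forms in MSH2KO21B and 33.9% and 34.6% in MECPK. The share in MSH2KO21B replicate 2 lay just above that in MECPK replicate 2, and the share spread more between the MSH2KO21B replicates than that gap. Each form alone differed by -3.05 for the shorter and -2.93 for the longer on the log2 scale. Of the 6 Hmga1 transcripts, 5 stood in the table in another version than in M21, and 2 of the 5 that shared the 324-base value are annotated with other coding lengths there.

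Nearly all of the Hmga1b value came from Hmga1b-202, a transcript of 120 bases at chr11:120763643-120763762. Its level was 1128 and 1116 TPM in MSH2KO21B and 8876 and 10242 TPM in MECPK. This was 97.8% of the gene's TPM in both MSH2KO21B libraries and 98.0% in both MECPK libraries. Its first 30 bases are shown because this sequence decides the rank of Hmga1b.
Hmga1b-202, first 30 bases: atgcttagatcccagcatgtccccaccaaa

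The whole 120-base sequence also lies inside the 3′ UTR of Hmga1b-201 and of 3 Hmga1 transcripts, where it starts 431 bases after the stop codon. Its TPM over the sum of the 291-base and 324-base forms was 3.28 and 3.09 in MSH2KO21B and 3.35 and 3.35 in MECPK. Without it, Hmga1 and Hmga1b had 344 and 362 TPM in MSH2KO21B and 2652 and 3058 TPM in MECPK, a log2 difference of -3.01. The level of Hmga1b thus rests on a sequence that Hmga1 messages also carry, and the difference between the lines was of like size with and without it. Reads of the 2 loci could not be separated, and the 120-base entry held 0.113% and 0.112% of all TPM in MSH2KO21B and 0.888% and 1.02% in MECPK.

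**Figure D2:**
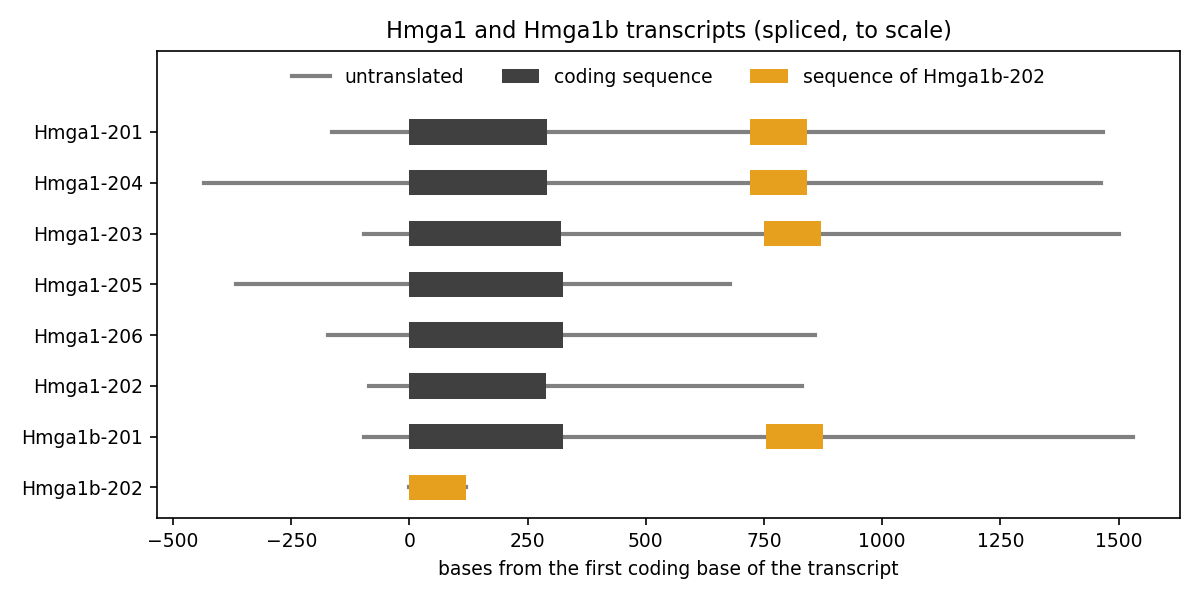
Spliced transcripts of Hmga1 and Hmga1b to scale, in bases from the first coding base, with coding sequence in dark grey, untranslated sequence as a grey line and the sequence of Hmga1b-202 in orange. The orange block of 120 bases lies in the 3′ UTR of 3 Hmga1 transcripts and of Hmga1b-201.

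**Figure D3:**
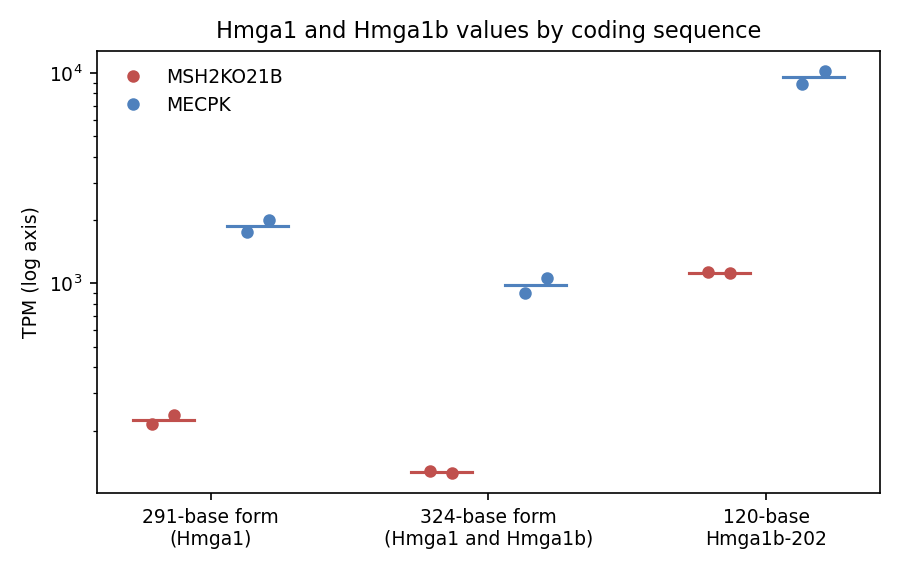
TPM (log axis) of the 3 distinct coding sequences of Hmga1 and Hmga1b in each library, with MSH2KO21B left of MECPK. Each point is 1 library and each line a mean, and the 3 sums differ between the lines by -3.05, -2.93 and -3.09 on the log2 scale.

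Igf2bp3 encodes an RNA-binding protein that is widely used as a carcinoma marker, and it lies at chr6:49085223-49214957 on the minus strand. Its level was 20.7 and 23.2 TPM in MSH2KO21B, against 3.95 and 4.03 TPM in MECPK. The means were 21.9 ± 1.76 TPM in MSH2KO21B and 3.99 ± 0.0563 TPM in MECPK, a log2 difference of 2.20. Both MSH2KO21B libraries stood well above both MECPK libraries. The coding gene Malsu1 overlaps it on the opposite strand, and no source used here states whether strand was read. The closest patterns were those of Cers3 at a distance of 0.23, Zfp110 at 0.23 and Kctd1 at 0.24, each over the 4 libraries. Cers3, a ceramide synthase of the skin barrier, had 20.7 and 22.8 TPM in MSH2KO21B and 4.20 and 3.33 TPM in MECPK.

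Igf2bp1, at chr11:95957163-96005940 on the minus strand, encodes the family member first known for binding a zipcode in beta-actin messenger RNA. Its level was 2.79 and 2.39 TPM in MSH2KO21B, against 0.247 and 0.231 TPM in MECPK. The means were 2.59 ± 0.286 TPM in MSH2KO21B and 0.239 ± 0.0117 TPM in MECPK. The MECPK libraries were under 1 TPM, so the log2 difference of 1.53 depends on the pseudocount and was 2.99 with a pseudocount of 0.1. Igf2bp1 was the lowest of the 3 IGF2BP genes in every library.

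Igf2bp2, at chr16:22059009-22163299 on the minus strand, encodes the member that stays active in many adult tissues. Its level was 33.1 and 34.5 TPM in MSH2KO21B, against 51.2 and 57.2 TPM in MECPK, a log2 difference of -0.66. The means were 33.8 ± 0.994 TPM in MSH2KO21B and 54.2 ± 4.20 TPM in MECPK. Its second transcript, with 1575 coding bases, was listed at 0 in all 4 libraries. Igf2bp2 was the most abundant of the 3 genes in every library.

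The summed level of the 3 IGF2BP genes overlapped between the lines, at 56.6 and 60.1 TPM in MSH2KO21B and 55.4 and 61.4 TPM in MECPK. The makeup of that sum differed. Igf2bp2 held 58.5% and 57.4% of it in MSH2KO21B and 92.4% and 93.1% in MECPK. Igf2bp3 held 36.6% and 38.6% in MSH2KO21B and 7.13% and 6.56% in MECPK. The family total was thus alike in level while the share of Igf2bp3 was several-fold larger in MSH2KO21B.

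**Figure D4:**
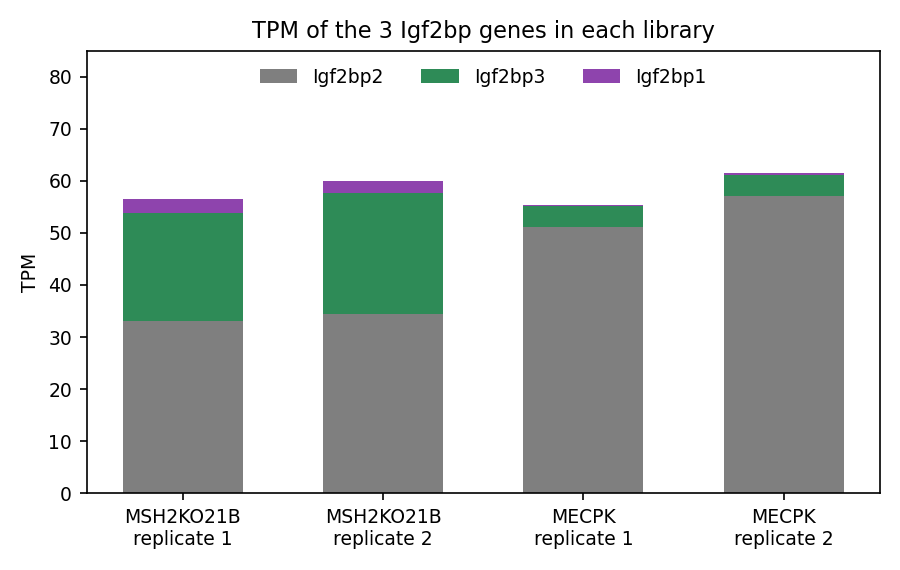
Stacked TPM of Igf2bp2, Igf2bp3 and Igf2bp1 in each library, with the MSH2KO21B libraries left of the MECPK libraries. Bar heights lie between 55.4 and 61.4 TPM in all 4 libraries, and the Igf2bp3 segment is larger in MSH2KO21B.

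Lin28b, at chr10:45376620-45486395 on the minus strand, was under 1 TPM in every library. It had 0.849 and 0.578 TPM in MSH2KO21B and 0.110 and 0.309 TPM in MECPK. The lines did not overlap, but the depth behind such low values is unknown and the log2 difference of 0.50 ranged from 0.13 to 1.45 over the alternatives. Its paralog Lin28a, which blocks let-7 in the cytoplasm, had 0.0588 and 0.0501 TPM in MSH2KO21B and was listed at 0 in both MECPK libraries.

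Ordered by mean level, both lines had Hmga1b first, followed by Hmga1, Hmga2, Igf2bp2, Igf2bp3, Igf2bp1 and Lin28b. Neighbours in this order did not overlap between genes in MSH2KO21B, and in MECPK only Igf2bp1 and Lin28b overlapped. The place of Hmga1b rests on its 120-base transcript, a sequence that Hmga1 messages also carry. The other Hmga1b transcript had 25.7 and 25.1 TPM in MSH2KO21B and 180 and 211 TPM in MECPK, below Hmga2 in both lines. The gap between Hmga2 and Igf2bp2 was small in MSH2KO21B and wide in MECPK. Hmga1 over Hmga2 was 8.11 and 7.90 in MSH2KO21B and 3.41 and 3.27 in MECPK.

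The 7 genes share a match to the let-7 seed in the annotated 3′ UTR. The background above names several of them as let-7 targets, so the frequency of matches among the 7 genes is a description only. Mature members of the family from RefSeq (GRCm38.p6) are shown because 10 of the 11 carry the same seed, bases 2 to 8, in capitals; let-7j differs in it.
mmu-let-7a-5p: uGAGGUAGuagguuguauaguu
mmu-let-7g-5p: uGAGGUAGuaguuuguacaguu
mmu-miR-98-5p: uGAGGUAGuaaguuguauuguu
mmu-let-7j: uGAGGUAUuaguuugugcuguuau

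The matching letters in a messenger RNA are CTACCTC, searched on the transcript strand in the longest annotated 3′ UTR of each gene. Of 20849 genes with a 3′ UTR, 2024 or 9.708% held at least 1 match. Hmga2, Igf2bp1 and Lin28b each held 4, and only 12 genes or 0.0576%, these included, held 4 or more. The 4 of Hmga2 and 1 from each of the other genes are shown with the match in capitals (GENCODE M21, GRCm38).
Hmga2, chr10:120364225-120364231: ggggcgccgacattcaatttCTACCTCa
Hmga2, chr10:120362988-120362994: ataatccccactcctcaataCTACCTCt
Hmga2, chr10:120362550-120362556: acttcctgatttgcaaggaaCTACCTCc
Hmga2, chr10:120361692-120361698: tgtacaatcaaaacacactaCTACCTCt
Igf2bp1, chr11:95961779-95961785: gcagtgctgtgcgaagtaaaCTACCTCa
Lin28b, chr10:45381023-45381029: ccttcacccgggcgggaagtCTACCTCa
Igf2bp3, chr6:49086788-49086794: aaacgtgcatttttactcaaCTACCTCa
Igf2bp2, chr16:22059474-22059480: gaaaaacacacaaataaaagCTACCTCa
Hmga1, chr17:27563292-27563298: tcttctcctctgttcacaaaCTACCTCt
Hmga1b, chr11:120764013-120764019: tcttctcctctgttcacaaaCTACCTCt

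The Hmga1 and Hmga1b matches stand in identical surroundings. Per kilobase of 3′ UTR the genes held 1.33 (Hmga2), 0.900 (Lin28b), 0.848 (Hmga1), 0.829 (Hmga1b), 0.631 (Igf2bp1), 0.561 (Igf2bp2) and 0.472 matches (Igf2bp3), against 0.0734 over all genes. Genes with a match thus lay on both sides of the comparison, with Hmga2 lower and Igf2bp1 higher in MSH2KO21B at 4 matches each. A match is a description of letters and not a shown site, and the let-7 microRNAs themselves were not analysed here.

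Other genes with matches were read by the number they hold. Among tested genes outside the 7, the median log2 difference was 0.17 for 1171 genes with 1 match, 0.11 for 151 with 2 and -0.21 for 20 with 3 or more, against 0.19 for 10364 with none. The 3′ UTRs lengthen along this order, with medians of 2256, 3623 and 4678 bases against 1142 bases for genes without a match, and the part of length was not tested.

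The promoters of Hmga2 and Igf2bp3, the genes with the largest differences in each direction on the log2(TPM + 1) scale, share a high pyrimidine content. By ratio of mean TPM, or with a pseudocount of 0.1, Igf2bp1 was the gene with the largest difference upward. The 250 bases before the RefSeq start (GRCm38.p6, transcript strand) are shown with motif matches on either strand in capitals. No 2 motifs overlap in these bases. The motifs searched were the GC box (GGGCGG), the CCAAT box (CCAAT), the E-box (CACGTG) and the TATA box (TATAAA).
Hmga2, chr10:120476470-120476719: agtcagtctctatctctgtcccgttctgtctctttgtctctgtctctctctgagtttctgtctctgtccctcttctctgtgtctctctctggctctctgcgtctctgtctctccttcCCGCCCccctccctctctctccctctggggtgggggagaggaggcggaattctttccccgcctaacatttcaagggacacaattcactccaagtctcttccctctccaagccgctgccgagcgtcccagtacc
Igf2bp3, chr6:49214955-49215204: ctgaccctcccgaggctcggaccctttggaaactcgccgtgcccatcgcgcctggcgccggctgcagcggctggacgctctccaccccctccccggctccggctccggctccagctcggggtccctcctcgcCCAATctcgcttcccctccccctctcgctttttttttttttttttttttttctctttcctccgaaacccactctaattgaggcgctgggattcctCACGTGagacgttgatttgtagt

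Pyrimidines made up 70.8% of the Hmga2 window, a share reached by 0.414% of 32851 promoters, and 68.0% of the Igf2bp3 window, reached by 0.737%. The Hmga2 window held a GC box, as did 32.742% of all these promoters. The Igf2bp3 window held a CCAAT box, found in 33.85% of promoters, and an E-box, found in 6.021%. Neither held the TATA box, which 12.368% held. The Lin28b window also held a CCAAT box and an E-box, that of Igf2bp2 held 2 GC boxes and that of Hmga1 held 3, and that of Hmga1b held none of the 4 motifs. Pyrimidines made up 44.8% of the Lin28b window, 46.8% of that of Hmga1b, 50.8% of that of Hmga1 and 58.0% of that of Igf2bp2. Igf2bp1 had no entry in the table used.

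Genes related to the 7 genes by pathway, family name or class were read from 7 lists of 112 genes. Of these 96 were tested, and limma called 47 higher and 23 lower in MSH2KO21B. These shares lay near those of all tested genes, of which 46.6% were called higher and 29.7% lower. Without MSH2KO21B replicate 1, 31 were called higher. Of 11 tested genes for other high mobility group proteins, 10 rose and 1, Hmg20b, fell, with a list median of 0.47 against 0.19 over all genes. After quantile normalization or median-ratio scaling 7 of the 11 were called higher. Hmgn5, a nucleosome-binding protein, had 37.2 and 36.1 TPM in MSH2KO21B and 8.61 and 7.78 TPM in MECPK (log2 difference 2.04, adjusted p = 4.5e-05). Hmgn2 rose by 0.97 (adjusted p = 8.8e-05), and Hmgb3, a DNA-bending protein of progenitor cells, rose by 0.93 (adjusted p = 2.1e-04). Most other high mobility group genes thus stood higher where the 3 HMGA genes stood lower.

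Genes of let-7 processing were mixed, with 3 of 14 tested genes higher, 5 lower and a median of -0.02. Only 1 was called higher after either other scaling or without either MSH2KO21B library, 5 were without MECPK replicate 2, and 3 were called lower without either MSH2KO21B library. For comparison, 46.6% of all tested genes were called higher and 29.7% lower, with a median of 0.19. Tut4, which adds uridines to the let-7 precursor bound by LIN28A, had 24.9 and 28.7 TPM in MSH2KO21B and 10.6 and 9.52 TPM in MECPK (log2 difference 1.33 ± 0.10 SE, adjusted p = 3.5e-04). Khsrp, a KH-domain protein that promotes let-7 maturation, fell by 0.40 (adjusted p = 0.0015). Dgcr8, the partner of Drosha in primary microRNA cleavage, rose by 0.41 (adjusted p = 0.0085). That call was lost after quantile normalization (adjusted p = 0.277), median-ratio scaling (adjusted p = 0.0570) and without MSH2KO21B replicate 1 (adjusted p = 0.0507) or replicate 2 (adjusted p = 0.0552).

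Of 24 tested genes described as let-7 targets, 12 rose and 9 fell, with a median of 0.24; 5 were called lower without MECPK replicate 2 or without MSH2KO21B replicate 2. Irs2, an adaptor of the insulin receptor, had 13.0 and 12.7 TPM in MSH2KO21B. In MECPK it had 0.0128 TPM in replicate 1 and was listed at 0 in replicate 2 (log2 difference 3.78, adjusted p = 1.1e-05). Irs2 passed the filter only through the MSH2KO21B libraries, and with a pseudocount of 0.1 the log2 difference was 6.93. Ccnd2, a D-type cyclin, had 416 and 422 TPM in MSH2KO21B and 80.5 and 79.2 TPM in MECPK (log2 difference 2.38, adjusted p = 8.9e-06). The target list therefore moved in both directions, in shares near those of all genes.

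Among 15 partners of the IGF2BP proteins, 4 rose, 4 fell and 7 were not called, with a median of 0.02; the count was 2 higher and 8 lower after median-ratio scaling, and 2 were higher without MSH2KO21B replicate 1. Over all tested genes, 46.6% were called higher and 29.7% lower, with a median of 0.19. Pabpc1, the cytoplasmic poly(A)-binding protein, had 653 and 611 TPM in MSH2KO21B and 2046 and 2124 TPM in MECPK (log2 difference -1.72, adjusted p = 3.3e-05). Stau1 fell by 0.71 (adjusted p = 4.5e-04) and Ybx1, a cold-shock domain protein, fell by 0.58 (adjusted p = 4.0e-04).

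IGF2BP proteins also read N6-methyladenosine, a methyl mark on messenger RNA. Of 16 genes of its machinery, limma called 9 higher and 0 lower, with a median of 0.23, and at an unadjusted p under 0.05 the counts were also 9 and 0. The share called higher and the median lay near those of all tested genes, 46.6% and 0.19. The split was 5 higher and 2 lower after quantile normalization and 6 higher and 3 lower after median-ratio scaling, and 1 was called lower without MSH2KO21B replicate 1. Rbm15, a subunit of the methyltransferase complex, had 14.7 and 15.2 TPM in MSH2KO21B and 4.89 and 5.08 TPM in MECPK (log2 difference 1.42, adjusted p = 1.1e-04). Virma, its scaffold, rose by 0.87 (adjusted p = 3.8e-04) and Ythdf3, a cytoplasmic reader, rose by 0.78 (adjusted p = 0.0018).

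Other oncofetal and placental genes were mostly low, and 4 of 11 were tested. Of these 3 rose and 0 fell, with the same counts at an unadjusted p under 0.05. Gpc3, 1 of the 3, passed the filter only through MSH2KO21B, at 1.16 and 1.15 TPM against 0.0462 and 0.0200 TPM in MECPK. Plac1 stood the other way but under the filter, at 0.0756 and 0 TPM in MSH2KO21B and 1.11 and 0.615 TPM in MECPK. With no filter 3 were called higher and 1 lower, and at 10 TPM 1 higher and 0 lower. Without MSH2KO21B replicate 1, 1 was called higher and 1 lower. Across all tested genes the shares were 46.6% called higher and 29.7% lower. Tpbg, the trophoblast glycoprotein, had 28.5 and 27.9 TPM in MSH2KO21B and 11.9 and 10.8 TPM in MECPK (log2 difference 1.24, adjusted p = 1.6e-04). Of the 11 genes, 6 were under 1 TPM in every library, and Dlk1 and Sall4 were listed at 0 in all 4.

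**Figure D5:**
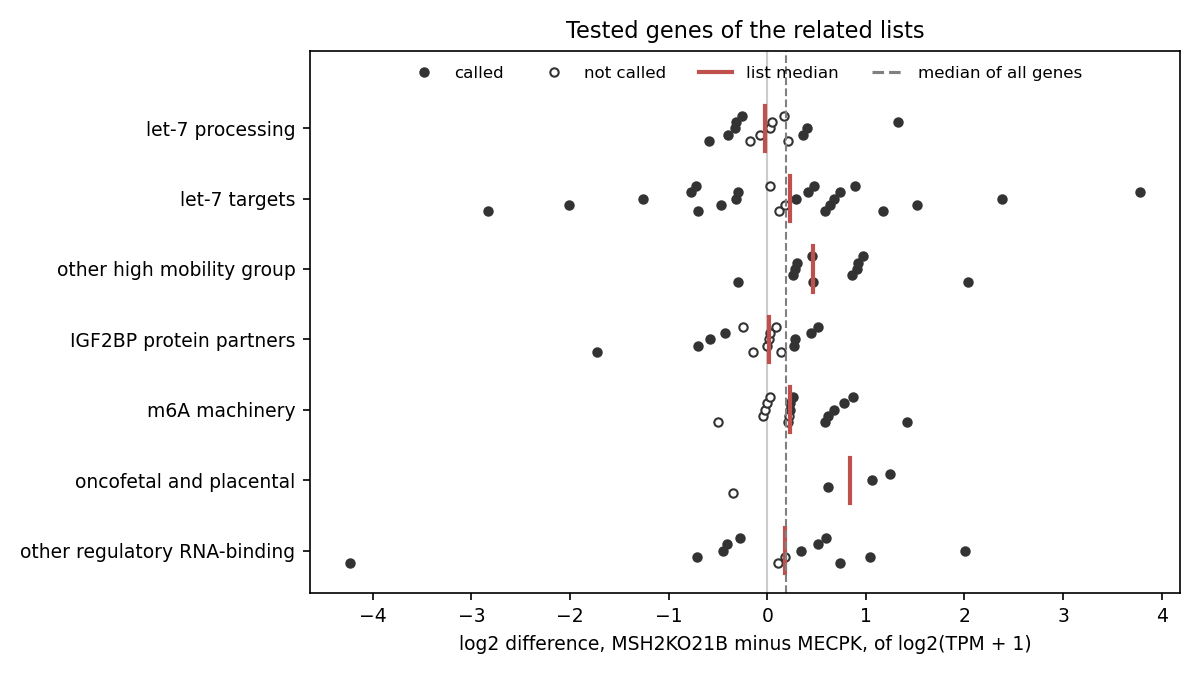
Log2 difference, MSH2KO21B minus MECPK, of each tested gene of the 7 related lists, 1 point per gene, filled where limma called it at an adjusted p under 0.05. Red bars are list medians and the dashed line is the median of all tested genes, 0.19; points of most lists lie on both sides of it.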

How the data were processed

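RNA from 4 libraries was measured, 2 per line, grouped by their titles. The deposited values are TPM per Ensembl transcript, which the authors made with kallisto 0.43.1 on GRCm38, per the submitters' processing notes. The transcript set, options and read type are not stated in the sources used here. TPM keeps no depth, so depth is unknown and no counting interval was computed. Of 61440 transcripts, 60503 were found in GENCODE M21 once versions were removed, and their TPM was summed per gene. The 937 others, at most 0.944% of a library's TPM, were left out.

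The test was limma 3.58.1 (R 4.3.3) on log2(TPM + 1), with a trend of variance on level and line as the only term. It ran on the 11921 genes that reached 1 TPM in 2 or more libraries, with Benjamini-Hochberg adjustment over all of them. The fit had 2 residual and 2.49 prior degrees of freedom. Replicates may be technical, and p-values speak only of their spread.

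The 7 genes, the lists and the rule for named genes were chosen with earlier results of these data known. Named were all 7 genes, in each list up to 3 called genes with the largest differences and a mean of 10 TPM or more in one line, and the 3 nearest patterns to the genes with the largest log2 differences. Some genes that the rule took are not reported here. Genes named as low, near the filter or listed at 0, as the 1 that fell in a list, as markers or as overlapping neighbours fall outside the rule. They were chosen after their values were seen. Alternatives were no trend, quantile normalization, median-ratio scaling, no filter or 10 TPM, a pseudocount of 0.1, protein-coding transcripts only, a replicate block, each library left out, and, chosen after seeing the data, Hmga1b without its 120-base transcript. A planned comparison of proteins was not run.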

Additional observations from a re-analysis of the deposited data

How the results depend on the processing

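The 7 genes kept their direction under all 13 alternatives: log2 differences ranged from -3.23 to -2.91 for Hmga1, -3.30 to -2.89 for Hmga1b, -4.46 to -4.11 for Hmga2, -0.88 to -0.59 for Igf2bp2, 1.09 to 2.99 for Igf2bp1, 1.91 to 2.43 for Igf2bp3 and 0.13 to 1.45 for Lin28b. Not all alternatives could move these values. Dropping the trend, changing the filter or adding a replicate block leaves a difference of means as it is. Protein-coding transcripts only left all 7 unchanged, and leaving out the 120-base transcript touches only Hmga1b. With a pseudocount of 0.1, 3 of the 7 genes were higher by over 1. Leaving out 1 library at a time, list genes called higher numbered 31 to 52, against 47 with all 4; genes called higher numbered 3701 to 5436 and lower 2834 to 3054, against 5550 and 3538. Replicate numbers did not pair the libraries (r = 0.016 between same-numbered deviations over 11921 genes), and with a replicate block 5579 genes were called higher and 3534 lower, and 47 and 23 list genes. Of 243 repeats over the 19 list genes that the naming rule took, 239 kept their call and 4, all Dgcr8, lost it. Celf2 without either MECPK library and Irs2 without either MSH2KO21B library fell under the filter, so these cases are not among the repeats. The repeats without the 120-base transcript could not change the values of list genes. Quantile normalization moved the median of all genes from 0.19 to -0.02 and median-ratio scaling to -0.01. Calls of small size thus depend on the scaling. A lone library is assumed to vary like the other line.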

Other observations

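Among 16 other genes of regulatory RNA-binding proteins, 13 were tested, and limma called 6 higher and 5 lower in MSH2KO21B, with a median of 0.18; without MECPK replicate 2, 3 were called lower. Of all tested genes, 46.6% were called higher and 29.7% lower, with a median of 0.19. Celf2, a splicing and stability factor, had 0.936 and 0.478 TPM in MSH2KO21B and 28.0 and 34.0 TPM in MECPK (log2 difference -4.23, adjusted p = 6.0e-05). It passed the filter only through the MECPK libraries, and with a pseudocount of 0.1 the log2 difference was -5.32. Zfp36l1, which promotes decay of AU-rich messages, had 122 and 128 TPM in MSH2KO21B and 27.6 and 33.3 TPM in MECPK (log2 difference 2.00, adjusted p = 1.1e-04).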
